A study of Mus musculus with 15 samples.

Results

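The 10 genes described here encode core proteins of the cardiac sarcomere: Myh6, Myl2, Myl3 and Mybpc3 of the thick filament, Actc1, Tnnt2, Tnni3 and Tnnc1 of the thin filament, the giant spring protein titin (Ttn), and Actn2 of the Z-disc. They were chosen by name, and every probe whose accession mapped to one of them was read, which gave 20 probes of 41174 on the array and 10 genes of 32301. The data came from 15 one-dye Agilent arrays that fall into 5 groups of 3. Cardiac allografts were hearts of C57BL/10 donors placed as vascularized heterotopic grafts in the abdomen of CBA recipients and taken on post-operative day 5 (POD5). Hepatic allografts were B10.BR livers placed orthotopically in B10.D2 recipients and taken at POD5 or POD8. Cardiac and hepatic controls were called normal tissue in the methods and isografts elsewhere, and their strain was not given in the sources used here. All mice were male and the heart donors and recipients were sex-matched. The methods speak of separate mice at each time point but do not tie each array to a mouse, and p-values measure the spread between these samples.

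The sarcomere is the contractile unit of striated muscle. Myosin heads of the thick filament pull on actin of the thin filament when calcium binds troponin, titin holds the thick filament in register, and alpha-actinin crosslinks the thin filaments at the Z-disc. In the adult mouse ventricle Myh6 is the main myosin heavy chain, Myh7 the slower isoform that predominates before birth, and Myl7 and Myl4 are the light chains of the atria. A whole-tissue array averages over all cells of a piece of heart, so fewer cardiomyocytes and less of an mRNA in each cardiomyocyte cannot be told apart.

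All cardiac allograft arrays lay on 1 slide and all cardiac control arrays on another, so in the heart the effects of slide and of group cannot be told apart. Before normalization the 75th percentile of the processed signal was 394 on the second allograft array, 706 and 710 on the other 2 allograft arrays, and 1021 to 1247 on the controls. The second allograft array also correlated less with the other 2 allograft arrays (r = 0.9695 and 0.9717 over all probes) than they did with each other (r = 0.9886). Among the controls, the second array stood apart in the atrial light chains. Myl7 read 16.48 and 16.34 on the other 2 control arrays, 6.32 on the second, and 13.13, 14.01 and 13.97 on the allografts (quantile-normalized log2 signal). Myl4 read 16.01, 8.88 and 15.84 on the controls, and the atrial-enriched Mybphl 12.02, 3.21 and 11.96. Where leaving out allograft 2 or control 2 changed the call of a sarcomere gene or a named related gene, this is given beside it.

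The stretch just before the start site of each gene is given for the members in which it held a CArG box, the binding sequence of serum response factor, or a MEF2 site, because both are textbook elements of muscle promoters. The RefSeq table of GRCm38.p6 held 12 such start sites for the 10 genes, and 250 bases before each were searched on both strands. A CArG box was found in Actc1 (chr2:114052876-114053125, minus strand) and Myl3 (chr9:110763428-110763677, plus strand), from positions -47 and -85 relative to the start site. A MEF2 site was found in Mybpc3 (chr2:91117894-91118143, plus strand) and Ttn (chr2:76982548-76982797, minus strand), from positions -90 and -166. Capitals mark these matches, which did not overlap each other or another motif searched.
Actc1: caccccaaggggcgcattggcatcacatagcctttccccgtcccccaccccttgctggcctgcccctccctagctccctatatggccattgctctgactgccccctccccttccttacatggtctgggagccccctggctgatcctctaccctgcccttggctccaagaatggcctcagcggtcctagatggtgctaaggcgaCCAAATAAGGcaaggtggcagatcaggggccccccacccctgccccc
Myl3: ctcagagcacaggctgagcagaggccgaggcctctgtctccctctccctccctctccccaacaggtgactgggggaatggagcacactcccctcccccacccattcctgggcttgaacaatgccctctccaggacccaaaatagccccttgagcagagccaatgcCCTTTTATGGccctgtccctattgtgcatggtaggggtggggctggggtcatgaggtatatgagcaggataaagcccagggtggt
Mybpc3: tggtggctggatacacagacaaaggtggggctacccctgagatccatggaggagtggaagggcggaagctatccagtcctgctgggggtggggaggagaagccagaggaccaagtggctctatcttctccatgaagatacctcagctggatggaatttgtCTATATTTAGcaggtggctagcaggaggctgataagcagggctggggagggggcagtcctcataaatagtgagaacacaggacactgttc
Ttn: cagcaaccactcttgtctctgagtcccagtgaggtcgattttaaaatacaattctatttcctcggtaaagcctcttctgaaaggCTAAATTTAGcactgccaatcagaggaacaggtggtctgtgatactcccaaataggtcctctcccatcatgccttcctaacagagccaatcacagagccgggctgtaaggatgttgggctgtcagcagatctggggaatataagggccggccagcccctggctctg
Of all 32851 windows of this length in the table, 1.47% held a CArG box and 2.92% a MEF2 site, against 2 of the 12 member windows for each. The letters CATTCC, the core of the MCAT element, occurred in 4 of the 12 windows (Myh6, Tnnt2, Tnnc1 and Myl3) and in 12.6% of all windows. The letters TATAAA occurred in 1 of the 12 (Myl2) and in 12.4% of all windows. A match is a run of letters, and no binding was measured here.

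In the control hearts the members were among the brightest probes on the array. The brightest probe of 8 of the 10 genes ranked in the top 1% on all 3 control arrays, and the lowest rank of any member was the 97.55th percentile, for Ttn. Myl2, the ventricular regulatory light chain, ranked 8, 4 and 6 of all probes on the 3 control arrays, with processed signals of 309765, 363174 and 314235. Signals of this size came from the low-gain scan that the scanner software joins to the main scan, and no spot was marked saturated on any array. The brightest probes were read from the low-gain scan on the cardiac arrays, except Myh6 and Actn2 on allograft 2 and Ttn on allografts 2 and 3. At 1 dimmer probe each of Myl3 and Ttn, all controls were read from the low-gain scan and all allografts from the main scan. In the allografts the lowest rank of any member was the 94.18th percentile, again for Ttn. All 20 member probes were well above background on all 6 cardiac arrays.

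The comparison of cardiac allografts at POD5 with cardiac controls asked which sarcomere transcripts differed in the transplanted heart. Tnni3 and Myl2 were lower in the allografts, by 0.78 and 0.48 on the log2 scale, and no member was higher. All 10 members had a negative difference, with a median of -0.70 on the log2 scale, against 0.03 over all 32187 genes and -0.05 over the 809 other genes at least as bright as the dimmest member. The 2 members called lower of 10 stand beside 15.1% of all genes called lower by the same test, and 15.2% called higher. Among the 809 bright genes 17.9% were called lower and 17.4% higher. By the standardized fold change (SFC) with Bonferroni adjustment, the study's own statistic, no member was called, beside 0.258% of all genes called lower. Differences are allograft minus control in log2 of the quantile-normalized processed signal, tested with limma and Benjamini-Hochberg adjustment over all probes, and each gene is read on its brightest probe. Under scaling to the 75th percentile the median of all genes itself shifted to 0.56, the members' median was -0.52, and Tnnt2 and Actc1 were at 0.23 and 0.12.

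**Figure D1:**
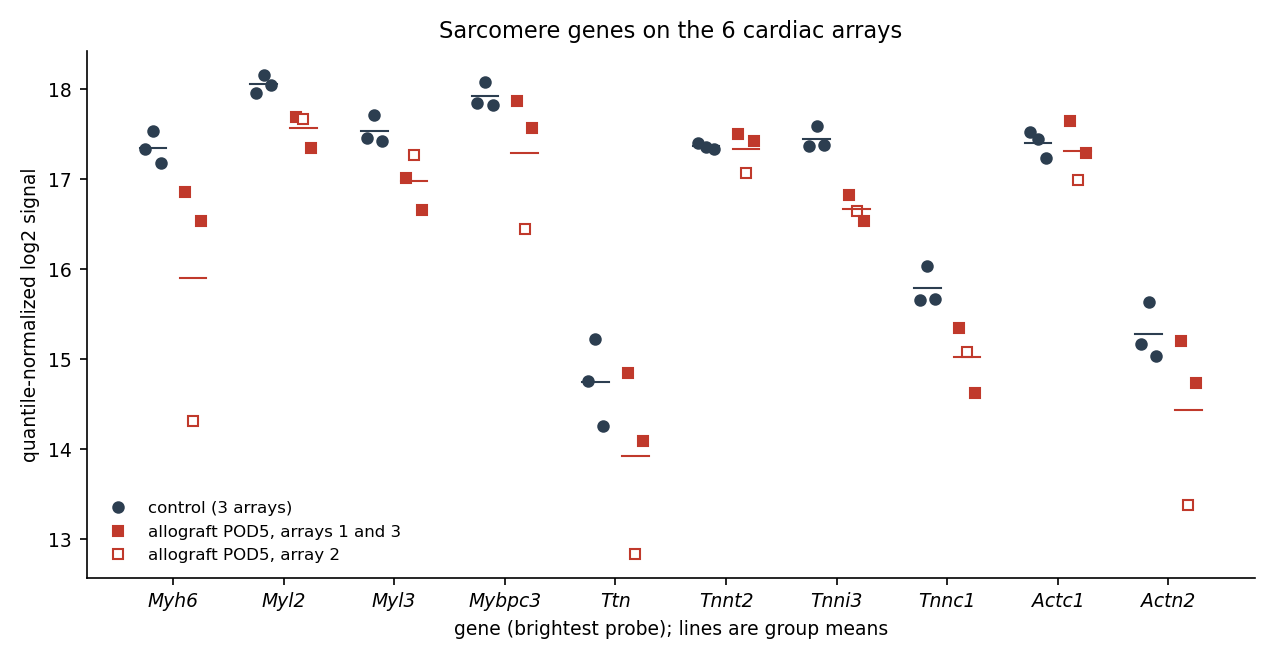
Quantile-normalized log2 signal of the brightest probe of each sarcomere gene on the 3 control arrays (circles) and the 3 allograft arrays (squares, with array 2 open); lines are group means. The allografts lay below all controls for Myh6, Myl2, Myl3, Tnni3 and Tnnc1, and array 2 lay far below the other allografts for Myh6, Mybpc3, Ttn and Actn2.

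Of the thick filament genes, Myh6 encodes alpha myosin heavy chain, the motor itself. Its brightest probe read 17.33, 17.54 and 17.18 on the controls and 16.85, 14.31 and 16.54 on the allografts. All allografts lay below all controls, but allograft 2 lay 2.39 below the mean of the other 2. The difference of -1.45 had a standard error (SE) of 0.71 and did not pass the test (limma adjusted p = 0.178). Without allograft 2 it was -0.65 and passed (adjusted p = 0.0378). A second Myh6 probe gave -0.98 (SE 0.68), with overlapping groups. The processed signals of the brightest probe before normalization were 210844, 252995 and 187029 in the controls and 88681, 13614 and 68661 in the allografts.

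Myl2 read 17.96, 18.16 and 18.04 on the controls and 17.69, 17.67 and 17.35 on the allografts. The groups did not overlap, and the difference of -0.48 (SE 0.13, 95% confidence interval -0.82 to -0.15) passed the test (limma adjusted p = 0.0436). The call held without allograft 2 (adjusted p = 0.0499) and was lost with any other single array left out (adjusted p = 0.0533 to 0.116), and under scaling to the 75th percentile, where the difference was -0.17. Myl3, the ventricular essential light chain, read 17.46, 17.71 and 17.42 on the controls and 17.02, 17.27 and 16.66 on the allografts. Its groups were also apart, and the difference of -0.55 (SE 0.19) did not pass (limma adjusted p = 0.0804), though it was -0.69 with an adjusted p of 0.0291 without allograft 2. The dimmer Myl3 probe gave a larger difference of -1.04 (SE 0.37, limma adjusted p = 0.0871), but at this probe scan and group coincided. Mybpc3, cardiac myosin-binding protein C, read 17.85, 18.09 and 17.83 on the controls and 17.87, 16.45 and 17.57 on the allografts. Its groups overlapped, and the difference of -0.62 (SE 0.39, limma adjusted p = 0.280) was -0.19 without allograft 2.

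Titin was read by 8 probes, with processed signals from 41.3 to 50553 over the cardiac arrays. The brightest read 14.76, 15.23 and 14.26 on the controls and 14.84, 12.84 and 14.09 on the allografts, a difference of -0.83 (SE 0.57, limma adjusted p = 0.322). The other 7 probes gave differences from -0.37 to -1.001, none passed the test, and all 8 were lowest on allograft 2. Actn2, the cardiac alpha-actinin, read 15.17, 15.63 and 15.04 on the controls and 15.21, 13.38 and 14.73 on the allografts. The difference of -0.84 (SE 0.51, limma adjusted p = 0.264) was -0.30 without allograft 2, and that of the brightest Ttn probe -0.28.

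Of the troponin subunits, Tnni3 is the inhibitory subunit whose protein serves as a clinical marker of cardiac injury. It read 17.37, 17.59 and 17.38 on the controls and 16.83, 16.64 and 16.54 on the allografts. The groups were apart by more than the spread within either, and the difference of -0.78 (SE 0.12, 95% confidence interval -1.09 to -0.47) passed the test (limma adjusted p = 0.00907). The second Tnni3 probe gave -0.75 (SE 0.16, limma adjusted p = 0.0230). Tnni3 was called with any 1 cardiac array left out, and was not called under scaling to the 75th percentile (adjusted p = 0.121). Tnnc1, the calcium-binding subunit, read 15.66, 16.04 and 15.67 on the controls and 15.35, 15.08 and 14.63 on the allografts. Its difference was as large, at -0.77 (SE 0.23), with groups apart, and narrowly missed the threshold (limma adjusted p = 0.0534). Tnnt2, the subunit that anchors troponin to tropomyosin, read 17.41, 17.36 and 17.33 on the controls and 17.51, 17.07 and 17.42 on the allografts. Its groups overlapped and the difference of -0.03 (SE 0.14) had a 95% confidence interval of -0.38 to 0.32. Actc1, cardiac alpha-actin, read 17.52, 17.45 and 17.24 on the controls and 17.64, 17.00 and 17.29 on the allografts. Its groups overlapped too, and the interval of its difference of -0.09 ran from -0.58 to 0.40.

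The groups did not overlap, with the allografts lower, for 5 of the 10 members (Myh6, Tnni3, Tnnc1, Myl2 and Myl3), beside 24.3% of all genes. No member had all allografts above all controls, beside 29.8% of all genes. The SD over the 3 allografts was 0.75 to 1.39 for Myh6, Mybpc3, Ttn and Actn2, and 0.15 to 0.37 for the other 6 genes. Without allograft 2 the members called lower were 4 (Myh6, Tnni3, Myl2 and Myl3), beside 19.8% of all genes called lower in that fit, with a median difference of -0.41. Without control 2 the 1 member called was Tnni3, beside 10.4% of all genes, with a median of -0.57. Before any normalization the mean processed signal was 1.61 to 3.81 times higher in the controls over the 10 members, with all allografts below all controls for each, while the median over all genes was 1.25 and 40.8% of all genes had all allografts below all controls.

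**Figure D2:**
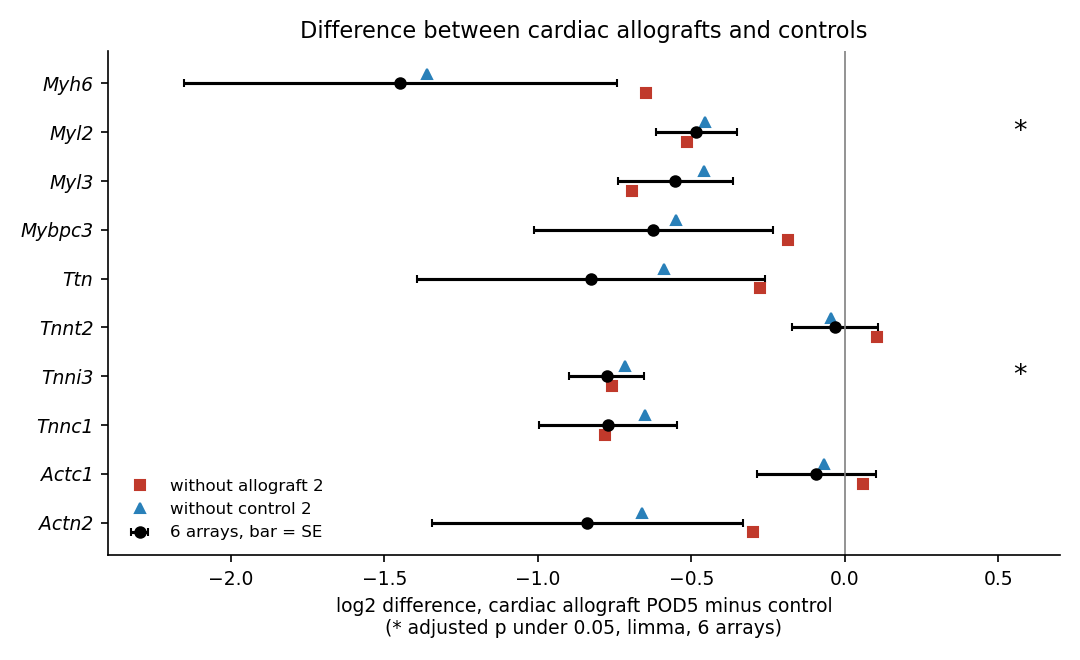
Log2 difference between cardiac allografts at POD5 and controls for each sarcomere gene, with all 6 arrays (points, bars are SE), without allograft 2 (squares) and without control 2 (triangles); asterisks mark an adjusted p under 0.05 with 6 arrays. Leaving out allograft 2 moved Myh6 from -1.45 to -0.65 and left Tnni3 at -0.76.

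Allograft 2 was lower than the mean of the other 2 allografts by 2.39 for Myh6, 1.63 for Ttn, 1.59 for Actn2 and 1.27 for Mybpc3, and lay within 0.48 of it for the other 6 members. Over all genes the central 90% of this deviation ran from -1.65 to 1.29. Of the related genes, Myh7 was lower there by 2.29, Nebl (nebulette) by 1.84 and Myom2 (myomesin 2) by 1.45, and Ckm, muscle creatine kinase, was higher by 1.86. The deviation of allograft 2 went with the genomic span of the gene in the RefSeq table of GRCm38.p6. Its median was 0.398 in the fifth of genes with the shortest span and -0.152 in the fifth with the longest, over 18176 genes, and Spearman's rho was -0.311. Over the 10 members rho was -0.648, as a description of genes that share 1 array. The deviations of a group's 3 arrays sum to 0 for each gene, so the other 2 allografts give no separate evidence. The same rho over all genes was between -0.0462 and 0.0598 for the 3 controls. Span is not mRNA length, which was not analysed here, and what set this array apart was not tested.

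**Figure D3:**
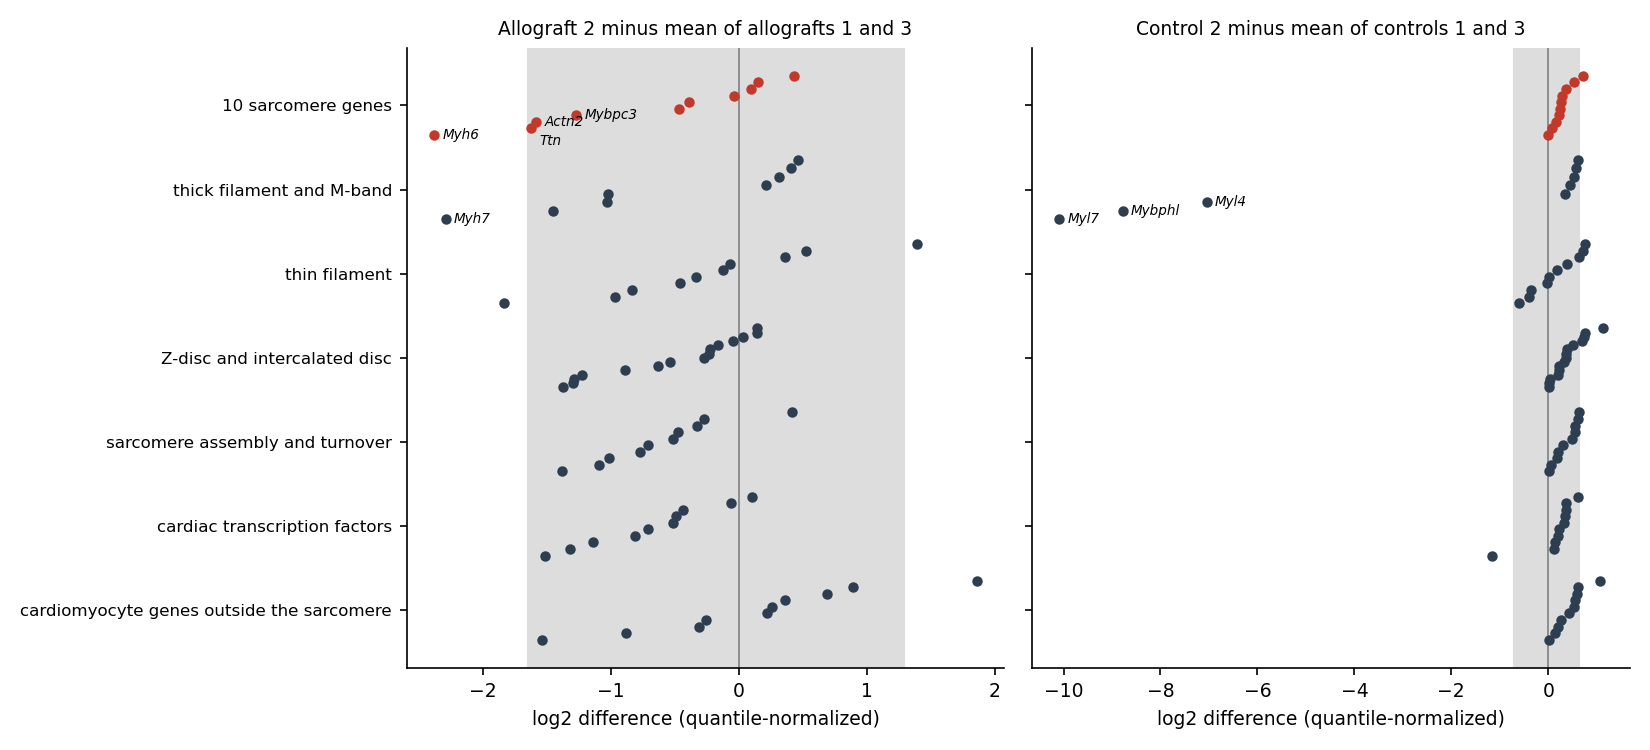
Deviation of the second allograft array (left) and the second control array (right) from the mean of the other 2 arrays of its group, in log2 of the normalized signal, for the sarcomere genes (red) and 6 lists of related genes (dark); grey spans the central 90% of all genes. Myh6, Ttn, Actn2 and Mybpc3 lay lowest among the members on allograft 2, and Myl7, Mybphl and Myl4 lay 7 or more below on control 2.

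Ratios of related genes within an array were set beside the differences, as 5 ratios chosen after the values had been seen. The log2 ratio of Myh7 to Myh6 was -0.24, 0.27 and 0.44 on the controls and 1.19, 1.37 and 1.37 on the allografts. It was higher by 1.16 in the allografts with no overlap, and allograft 2 lay with the other allografts, both heavy chains being low there. A second Myh7 probe gave 1.31. Myh7 itself was not called, and its difference with all 6 arrays, given further below, was negative. The ratio used only the brightest Myh6 probe, whose difference was -1.45. The second Myh6 probe, at -0.98, was not tried in it. The log2 ratio of Tnni3 to Tnnt2 was -0.04, 0.23 and 0.05 on the controls and -0.68, -0.43 and -0.89 on the allografts, lower by 0.74, and that of Tnnc1 to Tnnt2 was lower by 0.74 as well, both with no overlap. In a 2-sided exact permutation test each of these 3 ratios gave p = 0.1 (adjusted over the 5 ratios, 0.167), the smallest p that 3 arrays against 3 can give. The ratio of skeletal to cardiac alpha-actin, Acta1 to Actc1, differed by -0.04 (exact p = 0.8), and that of the slow skeletal troponin Tnni1 to Tnni3 by -0.23 (exact p = 0.7). A second Tnni1 probe gave -1.14 (exact p = 0.4), with overlapping groups. Tnni1 was far dimmer than Tnni3 (log2 ratio -11.97 to -10.34 on the brightest probes), so this ratio rests on a weak signal. Myosin heavy chains are close paralogs: 1 of the 2 probes for Myh4, a fast skeletal isoform, read 16.07 to 16.30 on the controls and moved with Myh6 and Myh7, whereas the other was not above background on any cardiac array, so the assignment of signal among heavy chain genes is uncertain.

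The rest of the sarcomere and its cell were read through 6 lists. Their counts are to be read beside the shares of all genes called lower and higher, given above with the sarcomere counts. Of 8 measured genes of the thick filament and M-band, 2 were lower and none higher: Obsl1 (-1.45), an obscurin-like linker, and Myom3 (-1.25), a myomesin. Of 10 thin filament genes, 4 were lower and 1 higher. Nebl fell by 2.59, the beta-tropomyosin gene Tpm2 by 1.56 and the filament cap Tmod1 by 1.21, while the tropomyosin gene Tpm3 rose by 1.03. Of 15 genes of the Z-disc and intercalated disc, 1 was lower, Myot (myotilin), which fell by 3.10, from 10.99, 12.55 and 11.86 on the controls to 8.76, 8.79 and 8.54 on the allografts. Of 10 genes of sarcomere assembly and turnover, 3 were lower: the ubiquitin ligases Trim55 (-3.19) and Trim63 (-0.57), and Alpk3 (-1.47). Of 10 cardiac transcription factors, Nkx2-5 was lower (-0.70) under quantile normalization, and 6 were called lower under scaling to the 75th percentile. Under that scaling the median of all genes itself shifted to 0.56. No share of all genes called is given for it, so the 6 cannot be set against all genes. Each difference given for a named gene passed limma under quantile normalization, with an adjusted p from 0.00135 to 0.0435 with all 6 arrays. Myom3, Tpm2, Myot and Trim55 passed with any 1 array left out (adjusted p at most 0.0366). Without control 2 the calls of Obsl1, Nebl, Tmod1, Tpm3, Trim63, Alpk3 and Nkx2-5 were lost (adjusted p = 0.0546 to 0.128), and without allograft 2 those of Trim63 (0.0594) and Nkx2-5 (0.0708). The turnover count of 3 was then 1 without control 2 and 2 without allograft 2. The thick filament count of 2 was 4 without control 2. Those 4 included Myom3 and the atrial Myl7 and Myl4, but not Obsl1.

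Of 10 cardiomyocyte genes outside the sarcomere, 8 were called lower and none higher, with a median of -1.20. This count is to be read beside the share of all genes called lower by the same test, given above with the sarcomere counts. Ckm fell by 2.47, phospholamban (Pln), the regulator of the calcium pump, by 2.11, and the calcium release channel Ryr2 by 1.45. Pln read 15.26, 15.91 and 15.46 on the controls and 13.74, 13.22 and 13.34 on the allografts, and passed with any 1 array left out. Without control 2 the calls of Ckm and Ryr2 were lost (limma adjusted p = 0.107 and 0.0877). This count of 8 was 9 without allograft 2, 3 without control 2, 2 to 4 without any other single array and 4 under scaling to the 75th percentile. The thin filament count of 4 was 5 without allograft 2, 1 without control 2 and 1 to 3 without any other single array. The shares of all genes called lower without allograft 2 and without control 2 are also given above. For the other settings no such share is given, so those counts cannot be set against all genes.

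Markers of other cells moved in the same samples, and their part in the members' differences was not tested. Here too the counts are to be read beside the shares of all genes called lower and higher, given above with the sarcomere counts. Of 9 leukocyte markers 4 were higher and none lower: Cd8a (by 5.93), Lck (4.87), Cd3g (3.98) and Cd3e (2.74) on the log2 scale. The summed linear signal of the leukocyte list ranged from 46850 to 65350 in the allografts and from 28670 to 43460 in the controls, and that of the 10 sarcomere genes from 899100 to 1320000 and from 1423000 to 1677000. All 6 endothelial markers were lower, with sums of 6074 to 7279 against 19100 to 26380, and 4 of 6 fibroblast markers were lower, with sums of 197500 to 272000 against 462300 to 639300. Of 5 smooth muscle markers 4 were lower, and of 10 skeletal muscle markers 1 was lower. Without control 2 the endothelial count was 5 and the smooth muscle count 3, and without allograft 2 the leukocyte count was 5 and the skeletal muscle count 3. For the fit without allograft 2 no share of all genes called higher is given. The leukocyte count of 5 therefore cannot be set against all genes. Of 6 hepatocyte markers 3 were called lower, and Alb, Apoa1 and Ttr were not above background on any cardiac array.

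Between the organs, all 10 members were higher in cardiac than in hepatic controls, beside 24.3% of all genes called higher and 24.2% called lower, and stayed so under each alternative run. The groups did not overlap for any of the 10, beside 28.7% of all genes higher without overlap and 37.7% lower. The heart and liver controls lay on different slides. Myl2 was at least 15950-fold higher in the heart, Myh6 at least 7441-fold, Actn2 at least 1418-fold and Ttn, on its brightest probe over these 6 arrays, at least 794-fold, given as bounds because their hepatic probes were not above background on any control. Tnnt2, Tnni3 and Mybpc3 differed by 12.26, 12.14 and 12.13 on the log2 scale (SE 0.41, 0.36 and 0.17), Tnnc1 by 10.13 (SE 0.24) and Actc1 by 8.54 (SE 0.28). The 2 probes of Myl3 disagreed in the liver. One was above background on all 9 hepatic arrays, at processed signals of 60.5 to 249, and differed by 5.49 (SE 0.33), and the other was not above background on any and gave at least 9024-fold.

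**Figure D4:**
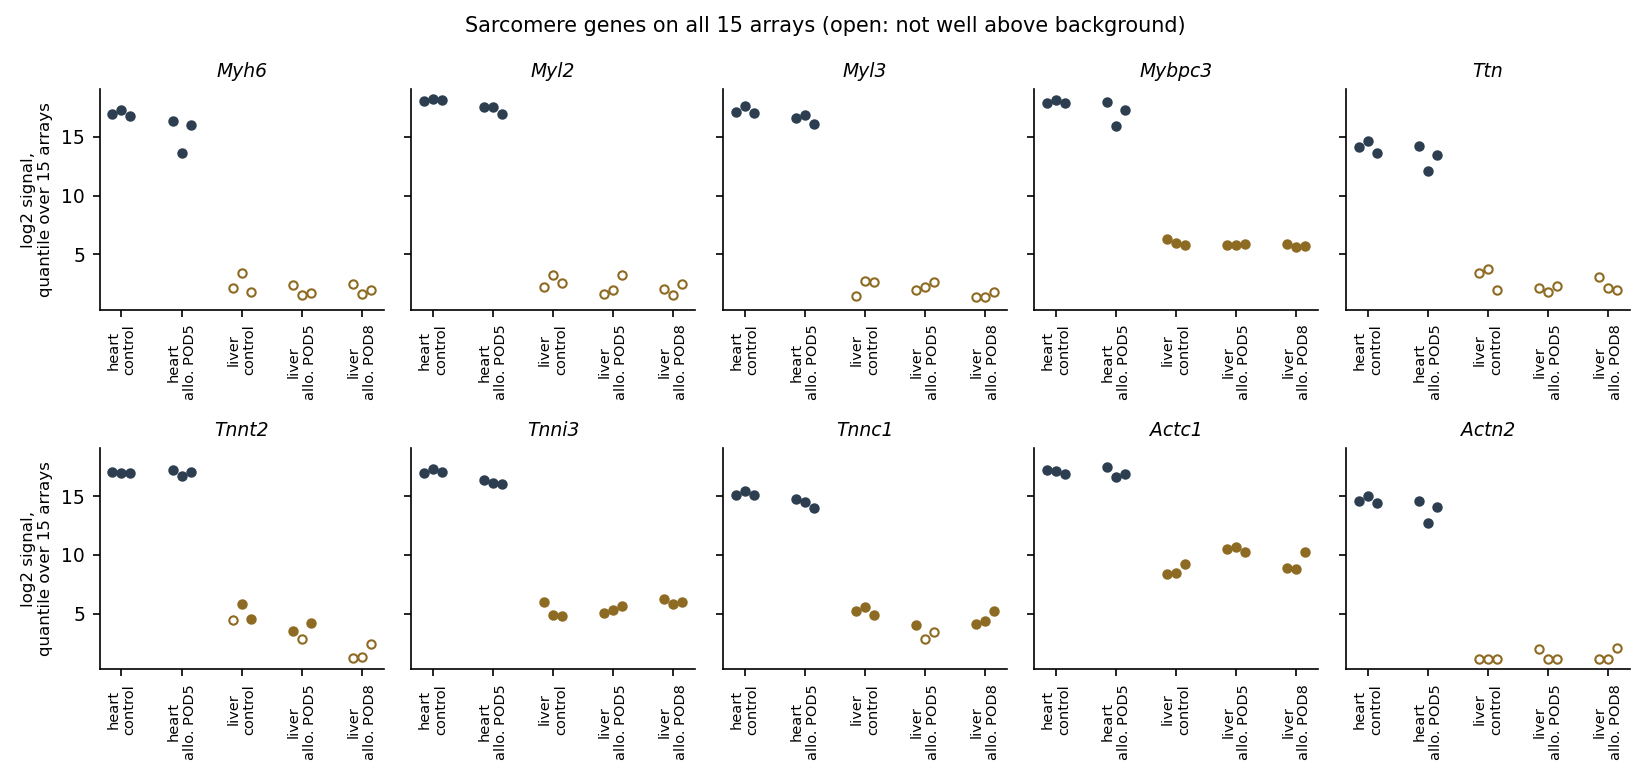
Log2 signal of the brightest cardiac probe of each sarcomere gene on all 15 arrays, quantile-normalized together; open points were not well above background. Heart arrays lay at 12 and above for every gene, and hepatic arrays below 7 except for Actc1.

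Over the 20 member probes, 12 were not above background on any of the 9 hepatic arrays and 4 were above it on all 9. Myh6, Myl2 and Actn2 belonged to the first kind at all of their probes, so no hepatic change is given for them. In the hepatic allografts at POD5 Actc1 was the 1 member called higher, beside 2.74% of all genes, and none was called lower, beside 1.05%. On the brightest probes the POD5 groups did not overlap for Actc1, higher (12.1% of all genes), and for Tnnt2 and Tnnc1, lower (19.7%). Actc1 read 7.58, 7.61 and 8.44 on the hepatic controls and 9.70, 9.91 and 9.47 on the POD5 allografts (log2). The groups did not overlap, and the difference of 1.82 (SE 0.28) passed the test (limma adjusted p = 0.0387), but not with slide as a random block (adjusted p = 0.0650) nor with any array left out except control 3 (adjusted p = 0.0823 to 0.151). No slide held both hepatic controls and POD5 allografts, so here too the effects of slide and of group cannot be told apart. Tnnc1 was lower by 1.68 (SE 0.34) without passing (limma adjusted p = 0.0643), with 1 of the 3 allografts above background. Tnnc1 passed under scaling to the 75th percentile (adjusted p = 0.0368), with the filter on dim probes (0.0247) and in 1 fit of all 5 groups (0.00513, where Tnnt2 also passed at 0.0389), and with normexp background correction its difference was -0.32.

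At POD8 the difference of Actc1 was 0.64 (SE 0.50, limma adjusted p = 0.506), with readings of 8.09, 7.99 and 9.52. Tnnt2 was the 1 member called lower at POD8, beside 1.84% of all genes, and none was called higher, beside 3.70%. On the brightest probes Tnnt2 was also the 1 member whose POD8 groups did not overlap, beside 19.9% of all genes lower and 11.7% higher without overlap. It was above background on 2 of the 3 hepatic controls and on none of the POD8 allografts (limma adjusted p = 0.0302 for the call). Its control mean lay 2.99-fold above the lowest signal counted as above background on the POD8 arrays. That mean included control 1, which was not above background. Its processed signal was 5.27, against 2.17 to 5.78 on the POD8 allografts, so the 2.99-fold value is no firm lower limit. On the slide that held 2 arrays of each group the Tnnt2 difference was -3.38 (limma adjusted p = 0.116). The call was also lost without any 1 POD8 allograft (adjusted p = 0.0802 to 0.138) or without control 3 (0.0504). With normexp the difference was -0.37 (limma adjusted p = 0.169), which is less than 2.99-fold. Tnni3, above background on all hepatic arrays with its brightest probe, differed by 0.12 at POD5 and 0.81 at POD8 without passing (limma adjusted p = 0.879 and 0.255). The second Tnni3 probe was higher by 1.14 at POD8 with no overlap, and did not pass either (limma adjusted p = 0.0993). It was above background on all 3 POD8 allografts and on 0 controls. Before normalization the processed signals of the brightest Tnni3 probe were 10.0 to 16.5 on the hepatic controls, 36.9 to 41.8 at POD5 and 50.5 to 69.8 at POD8. The arrays themselves differed in brightness. The 75th percentile of the processed signal was 92.1 to 226 on the hepatic controls, 338 to 478 at POD5 and 384 to 454 at POD8. These unnormalized signals alone therefore do not show a rise of Tnni3.

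The change at POD5 was set against itself between the organs in 1 fit of all 15 arrays. It differed for Actc1, by -1.84 (SE 0.54, limma adjusted p = 0.0345), beside 9.18% of all genes called with a lower change in the heart and 8.97% with a higher one. For Tnni3 the difference of -1.11 (SE 0.40) did not pass (limma adjusted p = 0.0727), nor did that of any other member. With scaling to the 75th percentile Tnnt2 passed as well, at 1.59 (limma adjusted p = 0.0230). Under that scaling the median of all genes in this test itself shifted to 0.77. Tnnt2 was also not above background on every hepatic control or on every hepatic allograft at POD5.

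The 10 genes outside the list whose profile over the 15 arrays was most like the members' mean profile had Pearson's r from 0.99873 to 0.99917, as a description: the 15 points share the gap between heart and liver. They were the caveolar protein gene Cavin4, Trim63, Srl (sarcalumenin of the sarcoplasmic reticulum), Ckmt2 (mitochondrial creatine kinase), the potassium channel Kcnj12, the small heat shock protein Hspb7, Tcap (telethonin of the Z-disc) and 3 probes with no symbol in the table. Tcap read 16.93 on average in the heart controls, 16.35 in the cardiac allografts and 4.11 in the liver arrays, and Ckmt2 16.53, 15.51 and 1.13. Among the members r with that profile was lowest for Myl3 and Actc1 (0.98069 and 0.98158) and highest for Mybpc3 (0.99873).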

How the data were processed

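The authors deposited, per the file headers, scanner output of Feature Extraction 10.5.1.1 for 15 Agilent arrays, in which each spot has a processed signal, an intensity on the linear scale after background subtraction and detrending, with dim spots set to a small positive value. Total RNA had been extracted with ISOGEN. Here outlier spots were left out, spots of a probe averaged, log2 taken, and the arrays of a comparison quantile-normalized, whereas the methods give natural logs. R 4.3.3 with limma 3.58.1 and Python 3.11.15 were used. Probes were named through their accession in the RefSeq table of GRCm38.p6, which named 26682 of 41174 probes (64.8%). Tests were 2-sided limma fits over 41003 to 41157 probes, with Benjamini-Hochberg adjustment and a threshold of 0.05, and were tested on simulated data. A bound ("at least") sets the bright group's mean against the lowest signal counted as above background. Genes in full were the members. Of each related list up to 3 called genes in each direction were named. Marker lists were given by counts and sums, except that the leukocyte genes, Mybphl, Myl4, Myl7, Myh4 and Myh7 were named after their values were seen. The members and lists were chosen with earlier results of these data known. The number of arrays, 3 a group, limits the precision. Alternatives were other scaling, background correction, probe choice, filters, priors, blocks, the study's standardized fold change (SFC), a t-test and leaving out each array.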

Additional observations from a re-analysis of the deposited data

Results flagged for a closer look

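Actc1 stood out because its change at POD5 differed between the organs. The difference of the cardiac and the hepatic change was -1.84 on the log2 scale (SE 0.54, limma adjusted p = 0.0345 over all probes). The change was -0.09 in the heart and 1.82 in the liver, each in its own fit. Over the 19 alternatives of this test the difference ran from -2.12 to -1.60 and passed in 9. Without cardiac allograft 2 it was -1.63 (adjusted p = 0.0708), and with slide as a random block -1.60 (adjusted p = 0.0838). The third hepatic allograft at POD5 shared a slide with the cardiac allografts, and without it the value was -1.95 (adjusted p = 0.0452).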

How the results depend on the processing

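The count of sarcomere genes called lower in cardiac allografts, 2, was 3 with normexp (Tnni3, Tnnc1 and Myl3), with the filter on dim probes and with a trended prior (Tnni3, Tnnc1 and Myl2 in both). It was 1 under scaling to the 75th percentile (Myh6, at -1.38, adjusted p = 0.0494), in 1 fit of all 5 groups (with quantile normalization and, added after seeing the data, with 75th percentile scaling), with the replicate block and with the methods' t-test, and 0 with SFC (Bonferroni, at which 0.258% of all genes were called lower) and with limma and Bonferroni adjustment. Leaving out 1 array gave 1 to 4. No alternative called a member higher, and the median difference stayed between -0.86 and -0.41. In all, 182 of 190 recomputed member values were negative. The hepatic POD5 count of 1 (Actc1) was 0 with the replicate block (adjusted p = 0.180), slide as a random block, the methods' t-test and SFC, and 0 to 1 with an array left out. The POD5 count of genes called lower, 0, was 1 under 75th percentile scaling and the dim filter, and 2 in 1 fit of all groups. The POD8 count called lower, 1 (Tnnt2), was 3 under 75th percentile scaling, with Myh6 and Myl2 although neither was above background. Under that scaling the median of all genes itself shifted to -0.54 at POD8 and -0.43 at POD5. The POD8 count called lower was 0 with normexp, the dim filter, the replicate block, the t-test, SFC and slide as a fixed block. The POD8 count of genes called higher, 0, was 0 to 1 with an array left out. The count of lower organ differences, 1, was 3 with normexp background correction, 0 with slide as a random block, and 0 to 1 with an array left out (Tnni3, not Actc1, without hepatic control 1). That of higher ones, 0, was 1 (Tnnt2) under 75th percentile scaling, where the median of all genes itself shifted to 0.77. Among these alternatives, the share of all genes called lower is given here only for SFC and for leaving out cardiac allograft 2 or control 2. The share called higher is given for none of them. The other counts cannot be set against such a share.

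Changes of sign touched values that had not passed. Tnnt2 in the heart was 0.23 under 75th percentile scaling (0.23 also in the fit of all groups), 0.017 with normexp and 0.065 with SFC, and with an array left out it ran from -0.11 to 0.11, positive without allograft 2. Actc1 was 0.12 under both 75th percentile settings, and -0.25 to 0.059 with an array left out, positive without allograft 2. Myh7 was 0.30 with SFC, and -0.70 to 0.46 with an array left out, positive without allograft 2, against -0.29. Myl7, at 0.66, was -2.37 with SFC, and -2.70 (without control 2) to 2.37 with an array left out. Myl4, at -0.56, was -2.91 to 0.66 with an array left out, positive without control 1 (0.66) or control 3 (0.57). Hepatic Tnni3 at POD5 was -0.057 with normexp and -0.066 to 0.49 with an array left out, and the organ difference of Tnnc1 was -0.34 with normexp. With an array left out the difference of the Acta1 to Actc1 ratio ran from -0.17 to 0.061, and that of the Tnni1 to Tnni3 ratio from -0.71 to 0.10. The cause of these changes was not tested.

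The replicate numbers did not pair the samples: deviations of same-numbered arrays correlated between -0.123 and 0.0892. With the number as a block, Tnni3 was the 1 cardiac member called (adjusted p = 0.0461), Myl2 lost its call (adjusted p = 0.101), and Actc1 at hepatic POD5 and Tnnt2 at POD8 (adjusted p = 0.125) lost theirs, while the organ difference of Actc1 kept its own (adjusted p = 0.0448). Of the 14 named related genes 7 stayed called with the block. Signal over background limited the hepatic values, since 12 of the 20 member probes were not above background on any hepatic array.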

Other observations

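Control 2 lacked most of the signal of the atrial light chains, yet read highest of the 3 controls for 8 of the 10 sarcomere genes. Without it Myl7 differed by -2.70 on the log2 scale (limma adjusted p = 0.0135) between cardiac allografts and controls, against 0.66 with it.

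The ankyrin repeat gene Ankrd1, which cardiomyocytes raise under stretch, read 17.35, 17.32 and 17.26 on the cardiac controls and 17.57, 17.56 and 17.64 on the allografts, with a difference of 0.28 (SE 0.08, limma adjusted p = 0.0510). The serum response factor gene Srf read 11.59, 11.99 and 11.69 on the controls and 11.30, 10.53 and 11.17 on the allografts (difference -0.76, SE 0.24, adjusted p = 0.0704), and its coactivator gene Myocd 9.36, 9.69 and 9.27 against 8.75, 7.11 and 8.11 (difference -1.45, SE 0.44, adjusted p = 0.0576). None of these 3 passed, and they were chosen after their values were seen. The MEF2 genes Mef2a, Mef2c and Mef2d differed by -0.05, -0.70 and 0.10, with overlapping groups (adjusted p = 0.901, 0.213 and 0.756).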
